A study of Mus musculus with 6 samples.

Results

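The genes described here encode enzymes and a chaperone that modify collagen: the lysyl hydroxylases Plod1, Plod2 and Plod3, the catalytic alpha subunits of prolyl 4-hydroxylase P4ha1, P4ha2 and P4ha3, the lysyl oxidases Lox, Loxl1 and Loxl2, and the collagen chaperone Serpinh1. They are 10 of the 24028 genes in the deposited expression table and were taken by gene symbol as the family around Plod2, which was chosen by its difference in level between the genotypes in these libraries. Their values are therefore a description, and no test of these 10 genes is offered as support. RNA was sequenced from mouse oocytes that had reached the germinal vesicle stage, arrested in meiosis before maturation. The 3 dKO libraries came from Ring1 -/-; Rnf2 f/f females with Zp3-cre, whose promoter drives the recombinase in the oocyte during its growth, and the 3 control libraries from Ring1 -/-; Rnf2 f/f females without it. Both groups thus lacked Ring1, both were on a mixed FVB, 129/Sv and C57BL/6J background, and all females were about 3 months old. Each library held 15 oocytes of 1 female, so the replicates were separate animals. Ring1 and Rnf2 encode the ubiquitin ligases at the core of Polycomb repressive complex 1, which keeps developmental genes silent. The design asks which transcripts differ when Rnf2 is lost too in oocytes that already lack Ring1. An effect of the transgene itself and the loss of Rnf2 cannot be told apart, and neither can the index sequence, which differed between the groups.

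Procollagen chains are modified in the endoplasmic reticulum before they leave the cell. Prolyl 4-hydroxylase makes the hydroxyproline that holds the triple helix together, lysyl hydroxylases make hydroxylysine, and Serpinh1 binds the folded helix. Plod2 is known for hydroxylating lysines in the ends of fibrillar collagen, which sets the kind of cross-link formed. Outside the cell, lysyl oxidases oxidise lysine and hydroxylysine so that cross-links can form. The hydroxylases need oxygen, iron, ascorbate and 2-oxoglutarate, and Plod2, P4ha1, P4ha2 and Lox are known targets of hypoxia-inducible transcription factors in other cells.

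Levels are given in FPKM, fragments scaled to transcript length and library size, which allows levels to be compared between genes. They are shares of a library, so a change in the total RNA of an oocyte cannot be told apart from a change of single transcripts. Rnf2 stood at 14.8, 8.44 and 5.31 FPKM in dKO replicates 1 to 3, against 53.7, 46.8 and 48.2 FPKM in controls 1 to 3, lower in every library labelled dKO (log2 difference -2.37 ± 0.30, SE). Ring1 was at most 0.240 FPKM in dKO and 0.0973 FPKM in control oocytes. The fit across all genes used limma on log2(FPKM + 1) with a Benjamini-Hochberg adjusted p under 0.05 as the threshold, for genes that reached 1 FPKM in 3 or more libraries. It called 21.0% of 11334 genes, 14.0% higher and 7.04% lower in dKO oocytes. The share of higher genes among the calls was 66.5%, and 54.1%, 52.6% and 48.0% with median-ratio scaling, quantile normalization and centring of each library on its mean. Without control replicate 1, 2 or 3 the fit called 1394, 1349 and 1332 genes, against 2385 with all libraries. Depth relative to control replicate 1, read from low values, was 0.661 to 1.08 in dKO and 0.904 to 1.02 in the other control libraries, and absolute depth is unknown. The oocyte genes Zp1, Zp2, Zp3, Gdf9 and Bmp15 were above 300 FPKM in every library. Over 11 oocyte markers the summed level was 4343 to 5898 FPKM in dKO libraries and 7294 to 7517 FPKM in controls, and 2 of the 11 fell and 0 rose.

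Plod2 was the gene that differed most among the 10. It stood at 66.6, 65.0 and 72.3 FPKM in dKO replicates 1 to 3, against 0.458, 0.325 and 0.330 FPKM in control replicates 1 to 3. Every dKO library was far above every control library, and the libraries of each group lay close together. The mean was 68.0 ± 3.81 FPKM in dKO oocytes and 0.371 ± 0.0753 FPKM in control oocytes (SD, n = 3 each), a ratio of 183. On the log2(FPKM + 1) scale the difference was 5.65 ± 0.17 (SE), which understates the change because the control level is below the pseudocount of 1. By the size of this difference Plod2 ranked 2 among the 11334 genes tested. Its mean level exceeded that of 96.6% of all 24028 genes in dKO oocytes and of 49.3% in control oocytes. Each replicate number stood for 1 sequencing lane that held a dKO and a control library, and within lanes the difference was 5.54, 5.64 and 5.78 log2 units in replicates 1 to 3. Exons of Plod2 overlap those of an annotated gene on the other strand, and the use of strand is not given in the sources used here. Among the genes checked, the same holds for Rnf2, Plod3, Lox, Loxl2, Leprel1, Hspbap1, Ndrg1, Igf2 and Col4a1. Exons of Plod3, Loxl2, Igf2 and Pdia4 overlap those of a gene on their own strand.

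**Figure D1:**
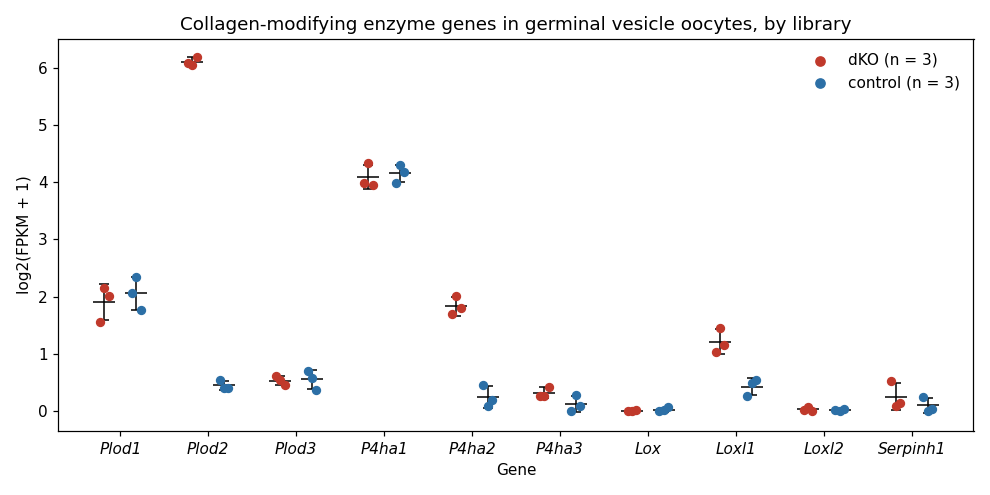
Level of each of the 10 genes as log2(FPKM + 1) in every library, with dKO (red, n = 3) left of control (blue, n = 3) and black bars for the mean ± SD on that scale. Plod2, P4ha2 and Loxl1 have no overlap between groups, and the other 7 genes overlap.

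The paralogs of Plod2 did not share its pattern. Plod1, the lysyl hydroxylase that acts in the helical part of collagen, had 1.93, 3.42 and 3.04 FPKM in dKO oocytes, against 3.20, 4.06 and 2.40 FPKM in controls. The groups overlapped, with a difference of -0.16 ± 0.24 log2 units (SE). Plod3, which also transfers sugars to hydroxylysine, had 0.522, 0.456 and 0.368 FPKM in dKO oocytes, against 0.631, 0.487 and 0.298 FPKM in controls. It overlapped too and was below the filter. The summed level of the lysyl hydroxylase genes was 71.2 ± 3.87 FPKM in dKO oocytes and 4.06 ± 0.944 FPKM in controls (SD, n = 3 each). Plod2 made up 95.4 ± 1.04% of that sum in dKO oocytes and 9.41 ± 2.38% in controls. The share of Plod1 was 3.93 ± 1.09% in dKO oocytes and 79.1 ± 4.38% in controls (SD, n = 3 each). The most abundant lysyl hydroxylase transcript was thus Plod2 in all dKO libraries and Plod1 in all controls.

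**Figure D2:**
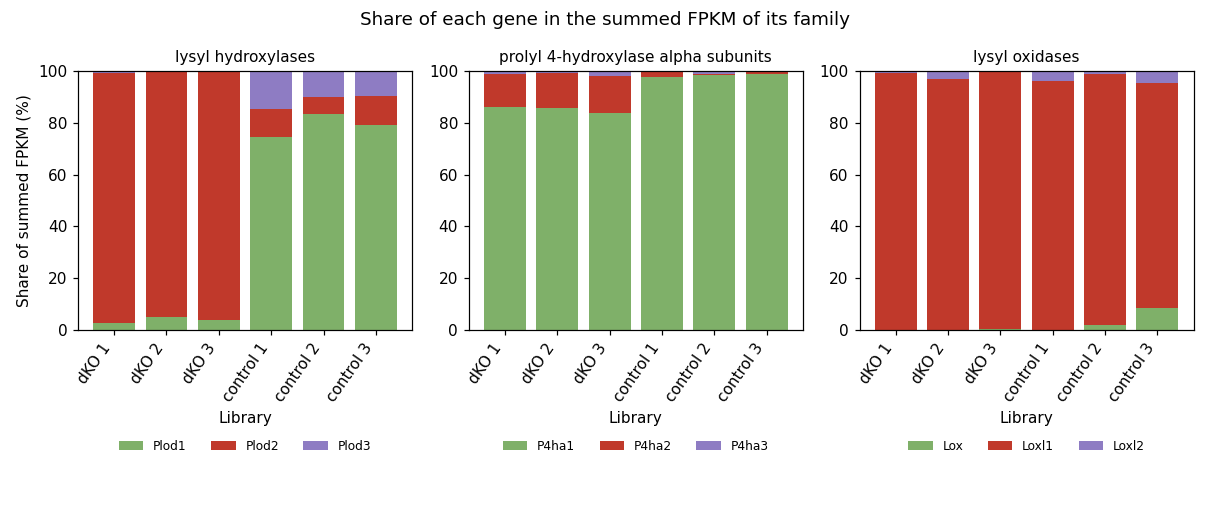
Share (%) of each gene in the summed FPKM of the lysyl hydroxylases, the prolyl 4-hydroxylase alpha subunits and the lysyl oxidases, 1 bar per library with dKO left of control. Plod2 fills most of the lysyl hydroxylase bar in dKO oocytes and Plod1 in controls, while P4ha1 leads its family in both groups.

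Among the prolyl 4-hydroxylase subunits, the abundant P4ha1 overlapped between the groups and P4ha2 was higher in dKO oocytes. P4ha1, the main catalytic subunit in most tissues, had 14.8, 19.1 and 14.4 FPKM in dKO oocytes, against 14.9, 18.7 and 17.0 FPKM in controls. The ranges overlapped almost whole, and the difference was -0.07 ± 0.18 log2 units (SE). P4ha2, the catalytic subunit of another form of the enzyme, had 2.23, 3.04 and 2.47 FPKM in dKO oocytes, against 0.372, 0.0686 and 0.137 FPKM in controls. The lowest dKO library was above the highest control. Its mean was 2.58 ± 0.416 FPKM in dKO oocytes and 0.192 ± 0.159 FPKM in controls (SD, n = 3 each), a ratio of 13.4 and a difference of 1.59 ± 0.18 log2 units (SE). Within lanes the difference of P4ha2 was 1.23, 1.92 and 1.61 log2 units. P4ha3, a further catalytic subunit, had 0.203, 0.204 and 0.344 FPKM in dKO oocytes, against 0, 0.215 and 0.0585 FPKM in controls, with overlap. Because P4ha1 dominated, the summed level of the subunits was 18.9 ± 2.96 FPKM in dKO oocytes and 17.2 ± 1.86 FPKM in controls. The share of P4ha2 in it was 13.6 ± 0.739% in dKO oocytes and 1.20 ± 1.10% in controls (SD, n = 3 each).

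The stretches before the start sites of P4ha2 and P4ha1 are shown because the genes encode alternative subunits of 1 enzyme and both are known hypoxia targets, but P4ha2 had no overlap between the groups while P4ha1 had. They are the 250 bases before the start, from RefSeq on build GRCm38.p6, 5′ to 3′ on the plus strand at chr11:54100674-54100923 and chr10:59323046-59323295. Capitals mark ACGTG or GCGTG, the core letters bound by hypoxia-inducible factors, on either strand.
P4ha2: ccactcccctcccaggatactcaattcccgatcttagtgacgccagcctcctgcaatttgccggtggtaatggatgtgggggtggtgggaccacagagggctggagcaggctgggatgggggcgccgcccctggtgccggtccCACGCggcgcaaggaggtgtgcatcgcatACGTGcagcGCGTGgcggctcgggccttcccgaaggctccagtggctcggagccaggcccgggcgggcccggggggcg
P4ha1: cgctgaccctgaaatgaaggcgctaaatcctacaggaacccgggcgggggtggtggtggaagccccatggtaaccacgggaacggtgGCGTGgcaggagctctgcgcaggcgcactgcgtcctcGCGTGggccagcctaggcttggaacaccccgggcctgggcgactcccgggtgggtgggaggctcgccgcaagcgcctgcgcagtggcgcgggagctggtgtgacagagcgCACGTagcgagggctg

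Each stretch held 3 matches, 1 of ACGTG and 2 of GCGTG. Over windows of 300 bases (250 before and 50 after the start), P4ha2 held 2 of ACGTG and 2 of GCGTG, and P4ha1 1 of ACGTG and 2 of GCGTG. In such windows 43.8% of 32851 mouse promoters held at least 1 match, 19.6% ACGTG and 32.4% GCGTG. The E-box, a motif of other factors, contains the first of these too. Of the 10 genes, 6 were matched to this table, and 5 of those 6 promoters held a match, all but that of P4ha3. Plod2, Lox, Loxl1 and Loxl2 were not analysed here for promoter sequence. The 6 promoters were rich in the dinucleotide CpG, with observed over expected ratios of 0.549 (Serpinh1) to 0.915 (Plod3), against a median of 0.384 over all promoters. Both ACGTG and GCGTG contain CG, so the share over all promoters is not a like background for these 6. Promoters of like CpG content were not compared. P4ha2 had 0.726 and P4ha1 0.882.

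Of the lysyl oxidases, Loxl1 was higher in dKO oocytes at a low level, and the others were near 0. Loxl1, known for its part in elastic fibres, had 1.04, 1.73 and 1.21 FPKM in dKO oocytes, against 0.195, 0.398 and 0.453 FPKM in controls. The groups did not overlap, and the ratio of the means was 3.81, with a difference of 0.78 ± 0.18 log2 units (SE). Within lanes it was 0.77, 0.97 and 0.61 log2 units. With quantile normalization the difference of Loxl1 shrank to 0.24 log2 units. Lox, the founding member of the family, was listed at 0 in dKO replicates 1 and 2 and in control replicate 1, and reached 0.00694 FPKM in dKO replicate 3 and 0.0443 FPKM in control replicate 3. Loxl2, which acts on type IV collagen, was at most 0.0554 FPKM in dKO oocytes and 0.0247 FPKM in controls. Serpinh1, the chaperone of folded procollagen, had 0.432, 0.0592 and 0.103 FPKM in dKO oocytes, against 0.191, 0 and 0.0311 FPKM in controls. Its groups overlapped, and it was far below Plod2 in every dKO library.

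Counted over the 10 genes, 5 passed the filter on low values. Of these 5, Plod2, P4ha2 and Loxl1 were past the threshold and higher in dKO oocytes, 0 were lower, and Plod1 and P4ha1 were not past it, beside the 21.0% of all tested genes that were called. Plod2, P4ha2 and Loxl1 were under 1 FPKM in every control library, so they passed the filter through their dKO values, and of 1014 tested genes with a control mean under 1 FPKM 77.4% were called higher and 0 lower. Over all 10 genes the groups did not overlap in 3, all higher in dKO oocytes, beside 22.3% higher and 12.5% lower among 20310 genes above 0 in any library. Loxl1 was no longer past the threshold when control replicate 1 or 2 was left out, with quantile normalization, or with median-ratio scaling, under which it was below the filter.

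The order of the levels changed at its top. In dKO oocytes it ran from Plod2 through P4ha1, Plod1, P4ha2, Loxl1, Plod3, P4ha3, Serpinh1 and Loxl2 to Lox. In that order the ranges overlapped between Plod1 and P4ha2, between P4ha3 and Serpinh1 and between Loxl2 and Lox. In control oocytes P4ha1 led, followed by Plod1, and all neighbours from Plod3 through Plod2, Loxl1, P4ha2, P4ha3, Serpinh1 and Lox to Loxl2 overlapped. Plod2 was thus not set apart from Plod3 or Loxl1 in control oocytes.

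Plod2 also varied little among the dKO libraries. Its coefficient of variation there was 5.61%, and its SD was 0.08 log2 units. Of 5263 genes with a dKO mean of at least 10 FPKM, 4.98% had a lower SD, and the median SD was 0.30. Rnf2 differed more among these libraries, at 14.8, 8.44 and 5.31 FPKM, while Plod2 stood at 66.6, 65.0 and 72.3 FPKM in the same order. P4ha1 had a coefficient of variation of 16.2% in dKO oocytes.

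By Euclidean distance of log2(FPKM + 1) over the 6 libraries, the genes closest to Plod2 included Mt1 (0.66), Igf2 (1.41) and Plac1 (2.05). They share the libraries and the step between groups with Plod2, so the likeness is a description. The metallothionein gene Mt1 had 65.5, 89.0 and 66.1 FPKM in dKO oocytes, against 0.952, 0.421 and 0.187 FPKM in controls. It was as sharply parted between the groups as Plod2, but less even among dKO libraries, with a coefficient of variation of 18.2%. The growth factor gene Igf2 and the placental gene Plac1 had coefficients of variation of 48.1% and 27.9% there.

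The annotated genes beside Plod2 did not differ in its manner. B430319G15Rik, a long noncoding RNA gene at the start of Plod2, had 0.0252, 0.0104 and 0.0154 FPKM in dKO oocytes and was listed at 0 in controls. Its groups thus did not overlap, with dKO higher, but all values were near 0. Plscr4, a gene of the phospholipid scramblase family on that side, was at most 0.0392 FPKM in dKO and 0.0206 FPKM in control oocytes. On the other side 4933400C23Rik was listed at 0 in every library. The noncoding gene 1700034K08Rik beyond it had 7.89, 5.22 and 4.60 FPKM in dKO oocytes, against 7.87, 7.07 and 4.05 FPKM in controls, with overlap (log2 difference -0.07 ± 0.28, SE; limma adjusted p = 0.876).

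**Figure D3:**
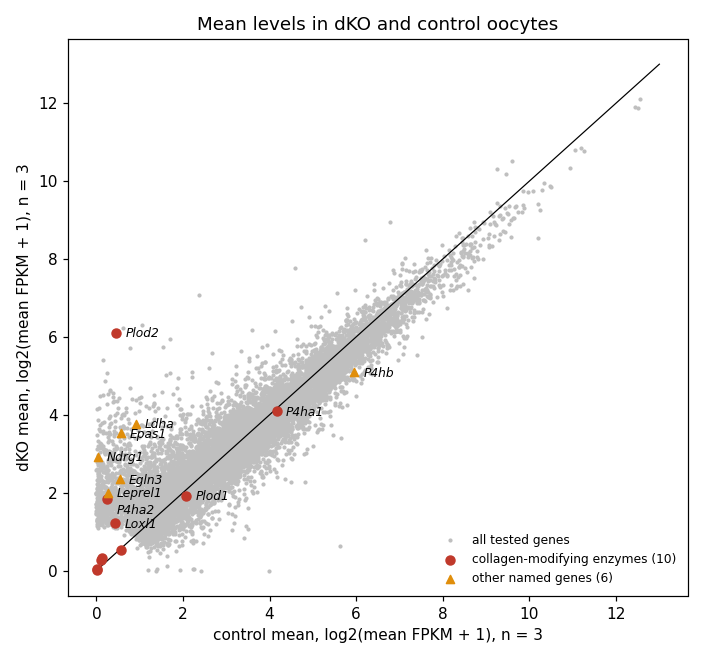
Mean level in dKO oocytes against mean level in control oocytes, both as log2 of the mean FPKM plus 1 (n = 3 each), for all 11334 tested genes (grey), the 10 collagen-modifying genes (red) and 6 other named genes (orange); the line marks equal levels. Plod2 lies far above the line, P4ha1 and Plod1 near it and P4hb below it.

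Among the other genes of collagen modification, Leprel1 rose and P4hb fell. Of 16 genes with a row, 8 were tested, and 1 rose and 1 fell, beside 14.0% higher and 7.04% lower over all tested genes, with a median difference of 0.04 log2 units against -0.02 over all tested genes. Leprel1 (also P3h2), a prolyl 3-hydroxylase, rose to 1.76, 3.62 and 3.60 FPKM in dKO oocytes, against 0.173, 0.157 and 0.278 FPKM in controls (log2 difference 1.69 ± 0.23, SE; limma adjusted p = 0.00108). All its controls were under 1 FPKM, so it passed the filter through its dKO values. Of tested genes with a control mean under 1 FPKM, 77.4% were called higher. P4hb, the beta subunit that pairs with every P4ha subunit and is also protein disulfide isomerase, fell to 34.5, 39.7 and 24.7 FPKM in dKO oocytes, against 60.0, 64.3 and 58.6 FPKM in controls. Its log2 difference was -0.89 ± 0.19 (SE; limma adjusted p = 0.0106), and the adjusted p was 0.0533 without control replicate 2. P4ha2 was thus higher while the partner subunit P4hb was lower in the same libraries, and P4hb remained the more abundant in each.

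Of the genes for export, processing and substrates of collagen, Pcolce2 and Col4a1 rose. Of 16 export and processing genes 9 passed the filter; 1 rose and 0 fell (median 0.12 log2 units), beside the 14.0% and 7.04% over all genes. Over all 16 the groups did not overlap in 5 with dKO higher and in 2 with dKO lower, beside 22.3% and 12.5% over all genes. The rising gene was Pcolce2, an enhancer of procollagen cleavage, at 2.25, 1.87 and 2.09 FPKM in dKO oocytes, against 1.14, 0.407 and 0.740 FPKM in controls (limma adjusted p = 0.0208), with a control mean under 1 FPKM. It lost its call without dKO replicate 1, control replicate 2 or control replicate 3 (limma adjusted p up to 0.112). Of 18 collagen genes 4 passed it, and 1 rose and 0 fell (median 0.12 log2 units). Over all 18 the groups did not overlap in 6, all with dKO higher, beside 22.3% higher and 12.5% lower over all genes. Col4a1, a basement membrane collagen whose exons overlap Col4a2, had 2.88, 2.07 and 1.91 FPKM in dKO oocytes, against 1.06, 1.15 and 1.05 FPKM in controls (limma adjusted p = 0.0402). With the replicate number as a block the limma adjusted p of Col4a1 was 0.0550, and the call was also lost without dKO replicate 1 or any 1 control (up to 0.134). The fibrillar collagen genes, the known substrates of Plod2, were nearly silent: Col1a1 reached 0.152 FPKM, Col3a1 0.0522 FPKM and Col5a1 0.151 FPKM in dKO oocytes, and Col1a2 was listed at 0 in all 3.

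Genes listed as other protein hydroxylases that use 2-oxoglutarate moved in both directions. Whether the product of each listed gene, Hspbap1 among them, has that activity was not examined here. Of 15 with a row 11 were tested, and 2 rose and 1 fell (median -0.16 log2 units), beside 14.0% and 7.04% over all genes. Egln3, a prolyl hydroxylase that marks hypoxia-inducible factors for destruction, with all controls under 1 FPKM, rose to 3.78, 3.47 and 5.02 FPKM in dKO oocytes, against 0.546, 0.331 and 0.498 FPKM in controls (log2 difference 1.79 ± 0.19, SE; limma adjusted p = 0.000313). Hspbap1 rose too, with means of 6.45 ± 1.21 FPKM in dKO oocytes and 2.50 ± 0.155 FPKM in controls (SD, n = 3 each; limma adjusted p = 0.00649). Hif1an, which hydroxylates an asparagine of hypoxia-inducible factors, fell to 3.88, 5.26 and 3.62 FPKM in dKO oocytes, against 8.85, 8.97 and 6.32 FPKM in controls (limma adjusted p = 0.0365). That call was lost without any 1 control or without dKO replicate 1 or 3 (limma adjusted p up to 0.155).

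Genes known to be induced by hypoxia, the class that Plod2, P4ha1, P4ha2 and Lox belong to, were called higher more often than lower. Of 26 such genes, listed apart from the 10, 18 were tested, and 7 rose and 0 fell, beside 14.0% and 7.04% over all genes, with a median difference of 0.59 log2 units against -0.02 over all tested genes. Over all 26 the groups did not overlap in 9 with dKO higher and in 2 with dKO lower, beside 22.3% and 12.5% over all genes. Ndrg1, Ldha, Egln3 and Hk2 had control means under 1 FPKM, and 77.4% of all tested genes at such levels were called higher and 0 lower. Ndrg1, a stress-responsive gene, stood at 5.36, 8.30 and 6.10 FPKM in dKO oocytes, against 0.0718 FPKM in control replicate 1 and 0 in the other controls (limma adjusted p = 3.79e-05). Ldha, which makes lactate from pyruvate, had 9.35, 10.4 and 18.3 FPKM in dKO oocytes, against 0.914, 1.42 and 0.323 FPKM in controls (log2 difference 2.84 ± 0.31, SE; limma adjusted p = 0.000337). Egln3 is described above, and the rest, picked out once their values were known, were the hexokinase gene Hk2, Kdm3a, Pdk1 and Pgk1, at 0.60 to 1.12 log2 units. Of widely used hypoxia markers, Vegfa was below the filter and had no overlap. It stood at 0.800, 0.154 and 0.0859 FPKM in dKO oocytes, against 0.0397, 0.0798 and 0 FPKM in controls. Car9, not past the threshold and with overlap, had 36.0, 58.5 and 42.6 FPKM in dKO oocytes, against 47.5, 34.8 and 48.3 FPKM in controls. The count of calls in this list was 5 with the replicate number as a block, and 4 without control replicate 1, 2 or 3 in each case. Without dKO replicate 2 the calls were 4 higher and 1 lower, and without dKO replicate 3 they were 9 higher and 1 lower.

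Among the genes of the hypoxia-inducible factors and Vhl, which is a regulator of these factors and not 1 of them, 4 of 6 passed the filter. Of these 1 rose and 0 fell, beside 14.0% higher and 7.04% lower over all tested genes. Without dKO replicate 2 the calls were 1 higher and 1 lower. Beside 22.3% higher and 12.5% lower over all genes above 0 in any library, the groups did not overlap in 4 of the 6, all with dKO higher. Of these Arnt2 had 0.613, 1.61 and 1.15 FPKM in dKO oocytes, against 0.0493, 0.0364 and 0 FPKM in controls, and Vhl had 1.09 ± 0.508 FPKM in dKO oocytes and 0.211 ± 0.0733 FPKM in controls (SD, n = 3 each), both below the filter. Epas1, which encodes the alpha subunit HIF-2 alpha, rose to 10.2, 10.7 and 10.5 FPKM in dKO oocytes, against 0.469, 0.519 and 0.435 FPKM in controls (log2 difference 2.96 ± 0.18, SE; limma adjusted p = 1.99e-05). All its controls were under 1 FPKM, a level at which 77.4% of tested genes were called higher. Like Plod2 it was even among dKO libraries, with a coefficient of variation of 2.50%. Hif1a, the other main alpha subunit gene, had 65.4, 55.1 and 63.0 FPKM in dKO oocytes, against 65.7, 64.1 and 69.3 FPKM in controls, and was not past the threshold. RNA levels do not show whether either protein was present or active.

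Genes of protein folding and stress in the endoplasmic reticulum, where the hydroxylases work, were lower where they were called. Of 18 listed 16 passed the filter, and 0 rose and 4 fell, with a median difference of -0.45 log2 units, beside 7.04% called lower over all genes. Over all 18 the groups did not overlap in 10, all lower in dKO oocytes, beside 12.5% over all genes. The 11 oocyte markers had a median difference of -0.52 log2 units and 6 without overlap, all lower in dKO oocytes; their part in the lower values here was not tested. Atf4, a transcription factor of the stress response, had 88.6, 123 and 83.9 FPKM in dKO oocytes, against 179, 179 and 189 FPKM in controls (limma adjusted p = 0.00722). Creld2 and the disulfide isomerase gene Pdia4 fell by 0.80 and 0.71 log2 units (limma adjusted p = 0.0147 and 0.0124), as did the chaperone gene Canx by 0.51. Creld2 lost its call without control replicate 1 or 3 and Pdia4 without any 1 control (limma adjusted p up to 0.0797 and 0.0697). The count was 7 with median-ratio scaling, 9 with each library centred on its mean, 3 with the replicate block, 7 without dKO replicate 3, and 1, 2 and 1 without control replicates 1, 2 and 3.

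**Figure D4:**
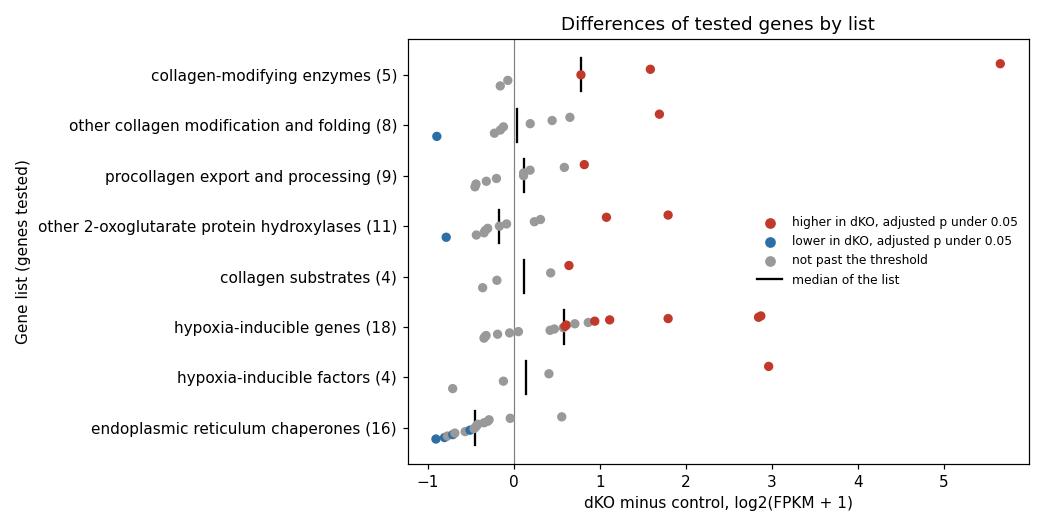
Difference between dKO and control oocytes in log2(FPKM + 1) for the tested genes of each list, 1 point per gene, red where higher and blue where lower past the threshold, with a black line at the median of the list. Plod2 lies at 5.65, and the calls among hypoxia-inducible genes are all higher and those of the endoplasmic reticulum all lower in dKO oocytes.

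Collagen enzymes are abundant in ovarian stroma, so markers of other cells were read in the same libraries. Of 14 markers of theca, stroma and fibroblasts 0 passed the filter, and their summed level was 4.36 to 5.20 FPKM in dKO libraries and 1.97 to 2.55 FPKM in controls. Their highest were Postn, at 0.919 ± 0.406 FPKM in dKO oocytes and 0.762 ± 0.119 FPKM in controls, and Dcn, at 1.41 ± 0.400 FPKM in dKO oocytes and 0.207 ± 0.0682 FPKM in controls (SD, n = 3 each). The groups did not overlap in 6 of the 14 with dKO higher (Col1a1, Col3a1, Dcn, Lum, Pdgfra and Vim) and in 1, Thy1, with dKO lower. Over all genes above 0 in any library the shares were 22.3% higher and 12.5% lower. Pdgfra had 0.578 ± 0.0637 FPKM in dKO oocytes and 0.0758 ± 0.0398 FPKM in controls (SD, n = 3 each). Lum had 0.520, 0.320 and 0.159 FPKM in dKO oocytes and was listed at 0 in controls. Col1a1 and Vim were at most 0.152 and 0.164 FPKM in dKO oocytes and at most 0.00716 and 0.0218 FPKM in controls. The part of stromal RNA in these results was not tested. Of 13 granulosa and cumulus markers 6 passed the filter, with 3 that rose and 0 that fell, beside 14.0% and 7.04% over all genes. Over all 13 the groups did not overlap in 4 with dKO higher and in 1 with dKO lower, beside 22.3% and 12.5%. The summed level of the 13 was 48.6 to 49.9 FPKM in dKO libraries and 26.2 to 32.9 FPKM in controls. The follicle-stimulating hormone receptor gene Fshr rose most, to 11.6, 11.1 and 9.24 FPKM in dKO oocytes, against 0.179, 0.149 and 0.146 FPKM in controls (log2 difference 3.32 ± 0.19, SE; limma adjusted p = 1.76e-05). Has2 rose too, with 1.54 ± 0.387 FPKM in dKO oocytes and 0.337 ± 0.303 FPKM in controls, and Gja1, below the filter, had 1.05 ± 0.146 FPKM in dKO oocytes and 0.220 ± 0.174 FPKM in controls without overlap (SD, n = 3 each). Fshr and Has2 too had control means under 1 FPKM. Nr5a2, the highest, had 25.5 ± 1.61 FPKM in dKO oocytes and 16.5 ± 2.02 FPKM in controls, and Cyp19a1 5.78 ± 0.498 FPKM in dKO oocytes and 9.94 ± 2.04 FPKM in controls (SD, n = 3 each). Amh and Foxl2, which define granulosa cells, were at most 0.684 and 0.586 FPKM in dKO oocytes and 1.03 and 0.0972 FPKM in controls, and Ptx3 was listed at 0 in every library. Nr5a2 lost its call without any 1 control (limma adjusted p up to 0.152), with median-ratio scaling (0.0585) and with each library centred on its mean (0.0591). The part of granulosa RNA in these results was not tested. Of 7 endothelial markers 3 were tested, and 1 rose and 1 fell, beside 14.0% and 7.04% over all genes. Over all 7 the groups did not overlap in 4 with dKO higher and in 1 with dKO lower, beside 22.3% and 12.5%. The part of endothelial RNA in these results was not tested. Flt1 rose, with 10.8 ± 3.39 FPKM in dKO oocytes and 2.80 ± 0.380 FPKM in controls. Pecam1 fell, with 14.9 ± 2.57 FPKM in dKO oocytes and 25.2 ± 4.11 FPKM in controls. The call of Pecam1 was lost without dKO replicate 1 or control replicate 1 or 3 (limma adjusted p up to 0.130). The sums over the 7 endothelial markers were 26.8 to 37.1 FPKM in dKO libraries and 27.3 to 36.4 FPKM in controls. Emcn was listed at 0 in every library. Of 7 immune markers 2 were tested, Laptm5 and Cd68, and neither was past the threshold. Over all 7 the groups did not overlap in 1, with dKO higher. Cd52 was listed at 0 in every library. Sums over the immune list were 4.53 to 7.47 FPKM in dKO libraries and 3.68 to 6.23 FPKM in controls.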

How the data were processed

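Total RNA of germinal vesicle oocytes was measured in 3 dKO and 3 control libraries. Per the labels' protocols, granulosa cells were removed by pipetting, the Ovation v2 kit was used to amplify RNA, and TruSeq libraries were sequenced on a HiSeq instrument. The deposited values are FPKM, which the authors gave as a column for each library. The tools TopHat2 2.0.11 and Cufflinks 2.0.2 and the build mm9 are named per the submitters' processing notes. Strand, annotation and any scaling between libraries are, in the sources used here, not given.

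Of 24525 rows, 497 that repeated a symbol and its values were removed. The filter of 1 FPKM in 3 or more libraries left 11334 genes. limma 3.58.1 in R 4.3.3 (lmFit, eBayes with trend, two-sided) was fitted to log2(FPKM + 1) of all kept genes, adjusted by Benjamini-Hochberg, with a threshold of 0.05. The script was tested on simulated data. Leaving out a library kept the same genes. Counting intervals are not given, since absolute depth is unknown. Relative depth is the commonest ratio of values under 0.5 FPKM to those of control replicate 1.

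The replicate number marks a shared lane per the labels and so pairs libraries; the deviations from the group mean of libraries with 1 number had correlations of 0.147, 0.107 and 0.0637. The fit had no block, and a fit with it was an alternative, with other pseudocounts, filters, scalings and variance models.

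The members and lists were chosen with earlier results of these data known. The text names all members, up to 3 rising and 3 falling genes per list, the 2 highest markers per other cell type, genes among the 5 closest to Plod2 (the others are not reported here) and 2 neighbours on each side; Hif1a, Arnt2, Vhl, Vegfa, Car9, Canx, the fibrillar collagens and some markers were named after their values were seen. Exon overlaps are from GENCODE M21 and promoters from RefSeq, both on GRCm38; no coordinates of the deposited table were used.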

Additional observations from a re-analysis of the deposited data

How the results depend on the processing

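Plod2 was higher in dKO oocytes under all 16 alternatives. Because Plod2 was chosen by this contrast, the values give the range of its difference and are no test of it. The difference was 5.65 log2 units as reported, and 7.19 and 6.30 with pseudocounts of 0.1 and 0.5. It was 5.42 with quantile normalization, 5.55 with each library centred on its mean, and 5.61 to 5.70 when 1 library was left out. Smaller pseudocounts shrink low values less, which accounts for the larger values. P4ha2 and Loxl1 kept their direction under all 16. The count of the 10 genes past the threshold was 3 as reported, 1 with the filter at 5 FPKM, where 2 of the 10 are tested, and 2 to 3 when 1 library was left out. Over all genes 2385 were called, 1214 with the filter at 5 FPKM, which tests 7418, and 1332 to 3031 when 1 library was left out. With the filter at 5 FPKM the counts were 1 for other collagen modification, 0 for export and processing, 0 for collagens and 3 for hypoxia-inducible genes. Quantile normalization gave 0, 0 and 4 for the last 3, centring on the mean 2 for export and processing, 0 for collagens and 9 for the endoplasmic reticulum, and array weights 0 for export and processing. Median-ratio scaling gave 7 for the endoplasmic reticulum, no filter 2 for the hypoxia-inducible factors with Vhl, and the replicate block 0 for collagens. Other than Col4a1, the block ended no call of a gene named by the rule. With 1 library left out the counts were 1 to 2 for other collagen modification, 0 to 1 for export and processing and 0 to 1 for collagens. They were 4 to 10 for hypoxia-inducible genes, 1 to 2 for the factors with Vhl and 1 to 7 for the endoplasmic reticulum. Where no construction is named, the cause was not tested. Centring each library on its mean moved the median of all genes to -0.12, against -0.02 as reported. Low levels limit what can be said of Lox, Loxl2, P4ha3 and Serpinh1.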

Other observations

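Genes that supply the cofactors of the hydroxylases were listed after the members' values were known. Values of some of these 18 genes are therefore given, and no test of them is offered as support. Of the 18, 14 passed the filter, and 3 were called higher and 1 lower, beside 14.0% and 7.04% over all genes. Those called, Gsto1, Rgn, Fth1 and Ogdh, are all given, while most of those not past the threshold are left out. Gsto1, which can reduce dehydroascorbate, had 8.24, 9.14 and 4.75 FPKM in dKO oocytes, against 1.08, 1.60 and 1.55 FPKM in controls, with no overlap. Rgn and Gulo, which act in the synthesis of ascorbate in mice, had 32.5 ± 15.2 and 8.70 ± 4.71 FPKM in dKO oocytes, against 13.7 ± 0.973 and 4.97 ± 0.635 FPKM in controls (SD, n = 3 each). The ascorbate transporter gene Slc23a2 had 99.0, 108 and 90.6 FPKM in dKO oocytes, against 109, 117 and 121 FPKM in controls. Fth1, the heavy chain of ferritin, had 66.5 ± 12.1 FPKM in dKO oocytes and 42.5 ± 4.36 FPKM in controls, while the light chain gene Ftl1 had 15.6 ± 7.13 FPKM in dKO oocytes and 24.9 ± 3.13 FPKM in controls. Ogdh, which consumes 2-oxoglutarate, had 9.56 ± 1.88 FPKM in dKO oocytes and 16.2 ± 1.63 FPKM in controls (SD, n = 3 each).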
